A study of Homo sapiens with 12 samples.

Results

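The genes described are 36 target genes and regulators of the tumour suppressor p53, found by their symbols among the 61163 genes of the count tables, with all 36 present in both tables. They comprise regulators of p53 (MDM2, MDM4, PPM1D, FBXW7 and the long non-coding RNA PURPL) and targets of p53 that act in cell cycle arrest, apoptosis, death receptor signalling, DNA repair, metabolism and a few other roles. RNA was sequenced from cells labelled HEK293T, an established human embryonic kidney line that carries the viral large T antigen. They were either unedited (HEK WT) or had HNRNPUL1 knocked out by CRISPR-Cas9 (HEK UL1 KO). HNRNPUL1 encodes hnRNP UL1, an RNA-binding protein of the nucleus. From each genotype, a nucleolar (NO) fraction and a cytoplasmic-nuclear (CN) fraction were taken, and each of the 4 groups of genotype and fraction had 3 replicates, giving 12 libraries. The labels name no treatment for any group. By these labels the cells of both genotypes contain the large T antigen, so the values below were read as measured where p53 is held inactive. The study's text, however, names HEK UL1 KO a HEK293T line but spells out HEK WT as wild-type HEK293. A difference of parent line, if there was one, cannot be told apart from the knockout here. Whether the knockout line came from 1 clone is not given in the sources used here.

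p53 is a transcription factor that is kept low by the ubiquitin ligase MDM2 and its partner MDM4, and that is released from them by DNA damage and by disturbed ribosome production in the nucleolus, when free ribosomal proteins bind MDM2. Released p53 binds a specific DNA element near its target genes and raises their transcription, which arrests the cell cycle, starts DNA repair or leads to apoptosis, and MDM2 and PPM1D are themselves targets that close a negative feedback loop. The large T antigen binds p53 and blocks its binding to DNA.

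The libraries held 37141666 to 104040073 counts. Replicate 3 of the HEK WT NO group stood apart from its group, with a TMM factor (the scaling factor of edgeR) of 1.40 against 0.690 and 0.622. The HEK UL1 KO NO libraries had factors of 1.34, 1.09 and 1.15, nearer to replicate 3 than to the other HEK WT NO libraries. Leaving replicate 3 out raised the number of genes called different between genotypes in the NO fraction from 327 to 9133. The HEK WT NO libraries then left both had lower factors than every HEK UL1 KO NO library, and the part of this in the rise was not tested. Replicate 3 of HEK WT CN also differed from its group, with a TMM factor of 0.760 against 1.01 and 1.04. HNRNPUL1 itself, the check of the labels, fell in HEK UL1 KO from 17.1 ± 1.41 to 4.80 ± 0.0583 CPM (SD, n = 3), a unit that gives a gene's count relative to the scaled library total, in CN and from 15.4 ± 6.14 to 3.84 ± 0.262 in NO. A list of 6 marker genes held kidney and epithelial markers and VIM, which encodes a filament protein of mesenchymal cells. Of these 6, 4 rose and VIM fell in the CN fraction of HEK UL1 KO. Their summed CPM was 30.0 to 40.1 in HEK WT and 18.2 to 19.1 in HEK UL1 KO. Most of this sum came from VIM, so its fall does not describe the 4 markers that rose. The summed CPM of 9 markers of other cell types was 0.949 to 1.72 in HEK WT and 2.07 to 2.40 in HEK UL1 KO in CN, where 5 were tested and 1 rose, and LYZ, ALB and CD3E had 0 to 5 counts per library. The part of these differences in the results below was not tested. All values are shares of the RNA in a library, so fewer molecules per cell and a change in the rest of the RNA cannot be told apart.

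The DNA element that p53 binds is shown first, although the members were chosen by symbol and not by this element. It consists of a pair of 10-letter units with a spacer of up to 13 bases, reads alike on both strands, and was searched for in the 250 bases before each start of a gene in RefSeq (GRCh38.p14), which listed starts for 29 of the 36 members. PURPL was the 1 member with an element free of mismatches, which 0.0256% of the 35116 windows of all genes held. With at most 2 mismatches, 6 of the 44 windows of members, from 5 members, held an element, and so did 2.49% of all windows. The window of PURPL, with the element in capitals, lies at chr5:27472042-27472291 on the plus strand and ends just before a RefSeq start, which lies inside the span that GENCODE gives the gene.
PURPL: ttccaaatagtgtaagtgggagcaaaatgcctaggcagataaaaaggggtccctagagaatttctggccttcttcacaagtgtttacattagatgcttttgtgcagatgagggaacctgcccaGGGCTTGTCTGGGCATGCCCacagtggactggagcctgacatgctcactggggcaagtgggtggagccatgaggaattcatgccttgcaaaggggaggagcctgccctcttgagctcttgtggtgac

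The elements of the other 4 members, each with 2 mismatches, are given with their units in capitals and any spacer in lower case. They lie at chr10:88991309-88991328 on the plus strand for FAS, chr12:68808923-68808942 on the plus strand for MDM2, chr15:88621306-88621325 on the plus strand for AEN and chr17:74872996-74873025 on the minus strand for FDXR. The element of MDM2 lies 75 bases before the second of its starts, inside the gene. Those of FAS and FDXR also lie inside the GENCODE spans of their genes.
FAS: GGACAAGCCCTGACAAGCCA
MDM2: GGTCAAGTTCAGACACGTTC
AEN: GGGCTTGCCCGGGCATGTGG
FDXR: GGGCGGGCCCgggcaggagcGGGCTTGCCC
A match describes these letters and does not show binding. Sequence farther from the starts or after them was not searched, so a member without a match here may still have an element elsewhere. Among these 5 members, PURPL was called lower in HEK UL1 KO in both fractions, and MDM2, FAS, AEN and FDXR were called in neither.

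In the CN fraction, 32 of the 36 members had enough counts to be tested, and 14 of them (43.8%) were called different between the genotypes by edgeR's quasi-likelihood test (adjusted p under 0.05), as were 37.9% of all genes tested. Of the 14, 6 rose (CDKN1A, GADD45A, TP53I3, TNFRSF10A, TNFRSF10B and DDB2) and 8 fell (PURPL, MDM4, CCNG1, TP53INP1, ZMAT3, XPC, RRM2B and SESN2), while 15.6% of all genes rose and 22.3% fell. The share of members called was near that of all genes. The balance of directions depended on replicate 3 of HEK WT CN. Without it, 16 members were called, 10 higher and 6 lower, while of all 28619 genes tested 4931 were higher and 5370 lower. TP53INP1 and RRM2B then missed the threshold. The members newly called higher were outside those named by the rule given with the processing, and are not listed here. A member described below as not called may therefore be called in that fit. The libraries of both genotypes did not overlap for 15 of the 32 members (46.9%), against 52.8% of all genes. The median log2 difference of the members tested was -0.01 and that of all genes 0.04. The plot of log2 differences places each member in both fractions.

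**Figure D1:**
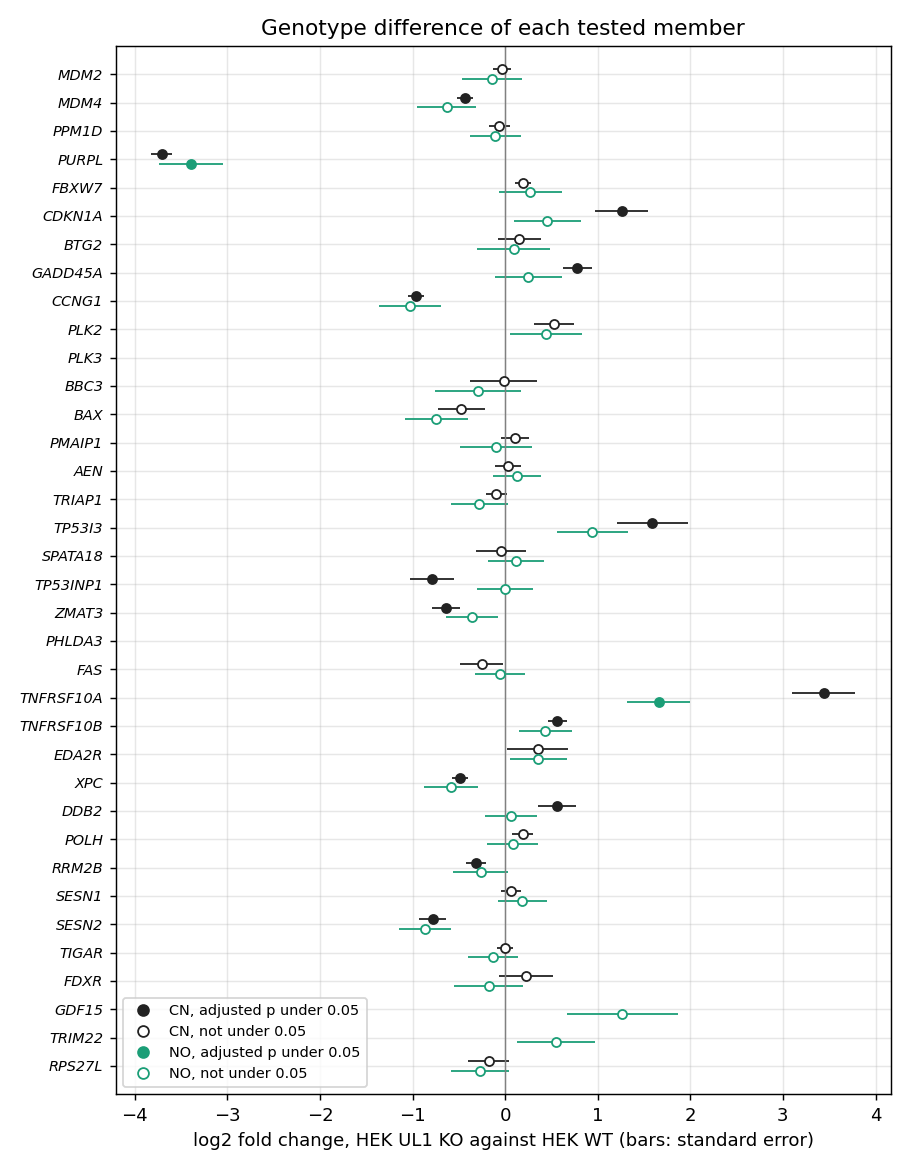
Log2 difference in expression of HEK UL1 KO from HEK WT (x axis, bars are standard errors) for each member tested (y axis, ordered by role, a line without points where the member was not tested) in the CN and NO fractions, filled where the adjusted p was under 0.05. PURPL lies at -3.71 in CN and -3.39 in NO and TNFRSF10A at 3.44 and 1.66, and the bars in NO are wider than those in CN for nearly every member.

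Among the regulators, PURPL, a p53-induced long non-coding RNA known to lower p53 levels, showed the lowest log2 difference of the members. PURPL lies at chr5:27217714-27497871 (plus strand, GRCh38, GENCODE 44). Its CPM in the CN fraction were 16.0, 16.1 and 13.6 in HEK WT and 1.30, 1.09 and 1.08 in HEK UL1 KO, which corresponds to 1343, 1347 and 1072 counts against 95, 82 and 64. Every HEK UL1 KO library was thus far below every HEK WT library. The fall was 3.71 on the log2 scale (SE 0.112, adjusted p = 1.78e-08 by edgeR). In the NO fraction PURPL had 11.7, 15.3 and 7.95 CPM in HEK WT and 1.34, 0.683 and 1.24 in HEK UL1 KO, a difference of -3.39 (SE 0.346, adjusted p = 9.95e-05), again without overlap. Scaled to total counts, the NO difference was -2.84 with an adjusted p of 0.0540.

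MDM4, the partner of MDM2 that binds and inhibits p53, had 18.4, 19.8 and 16.3 CPM in HEK WT and 13.6, 14.1 and 12.7 in HEK UL1 KO in the CN fraction. All HEK UL1 KO libraries were lower, and the difference was -0.43 on the log2 scale (SE 0.0854, adjusted p = 0.00251). MDM2 had 29.6, 27.1 and 34.9 CPM in HEK WT and 30.1, 31.2 and 28.04 in HEK UL1 KO, so the genotypes overlapped. The difference of MDM2 was -0.03 with a 95% interval of -0.25 to 0.18 (adjusted p = 0.802). PPM1D, a phosphatase that switches off the damage response, overlapped as well, with 6.82, 6.10 and 6.55 against 5.85, 7.30 and 5.44 CPM and an interval of -0.31 to 0.18. FBXW7, a substrate adaptor of a ubiquitin ligase that degrades cyclin E and MYC, had a difference of 0.19 (adjusted p = 0.0947). The exons of MDM2 overlap an antisense long non-coding RNA over 9.45% of their length, a pseudogene on the same strand over 5.29% and the antisense gene CPM (carboxypeptidase M) over 1.60%. How the counting treated strand and overlaps is not given, so the count of MDM2 is uncertain.

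**Figure D2:**
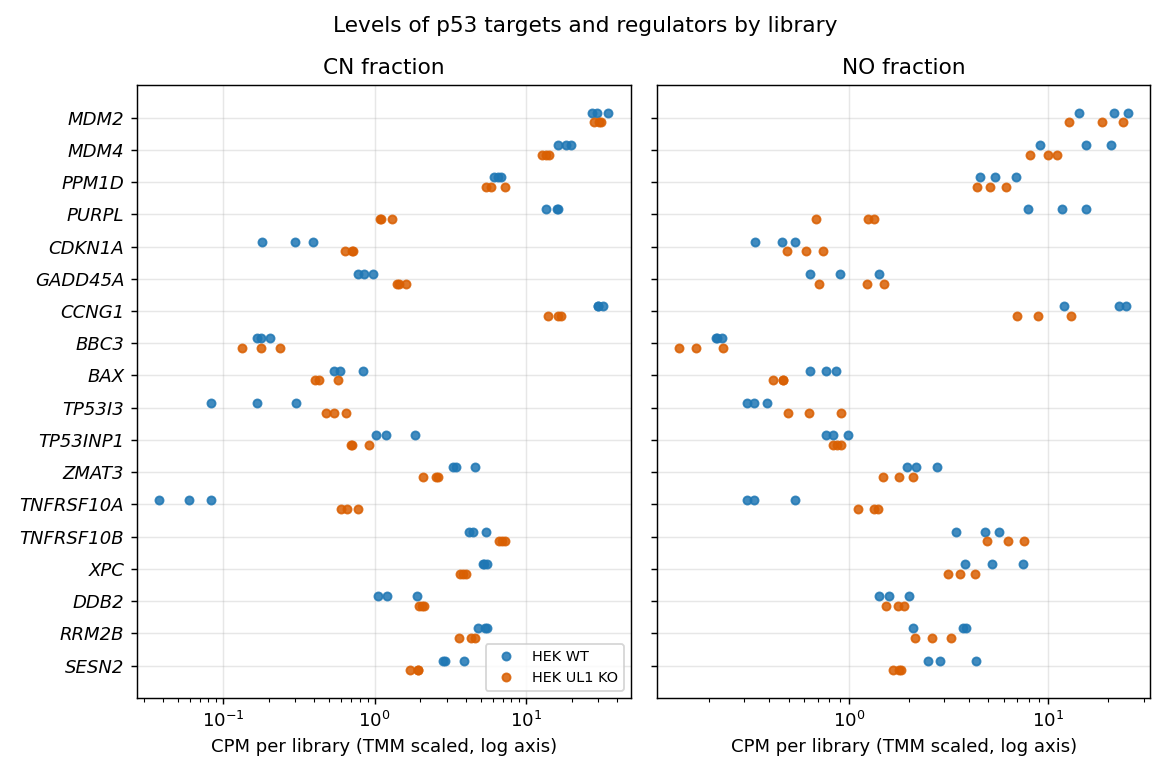
Expression of the members named individually, with each gene on a line (y axis) and CPM on a log x axis, in 1 panel per fraction, with 1 point per library coloured by genotype. For PURPL the HEK UL1 KO points lie at 0.683 to 1.34 CPM in both fractions and the HEK WT points at 7.95 to 16.1, whereas the points of MDM2 overlap.

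Of the genes of cell cycle arrest, CDKN1A and GADD45A rose and CCNG1 fell in the CN fraction. CDKN1A, which encodes the cyclin-dependent kinase inhibitor p21 and is the classical target of p53, was low, with 25, 15 and 31 counts in the HEK WT libraries and 52, 54 and 38 in HEK UL1 KO. Its CPM were 0.297, 0.179 and 0.392 against 0.711, 0.720 and 0.642. All HEK UL1 KO libraries were above all HEK WT libraries, and the difference was 1.26 on the log2 scale (SE 0.285, adjusted p = 0.00574). GADD45A, a stress sensor that acts in growth arrest and repair, had 0.974, 0.850 and 0.772 CPM in HEK WT and 1.41, 1.45 and 1.60 in HEK UL1 KO. The groups did not overlap and the difference was 0.78 (SE 0.158, adjusted p = 0.00302). CCNG1, which encodes cyclin G1, a cofactor of the phosphatase that acts on MDM2, had 32.2, 29.9 and 30.0 CPM in HEK WT and 16.3, 16.99 and 13.9 in HEK UL1 KO. Its HEK UL1 KO libraries were all lower, by -0.96 on the log2 scale (SE 0.0867, adjusted p = 1.82e-05). BTG2, an antiproliferative cofactor of mRNA deadenylation, was at 0.467 CPM on average in HEK WT and overlapped between genotypes. PLK2, a kinase of the polo family, did not overlap (0.475, 0.491 and 0.506 against 0.670, 0.600 and 0.861 CPM), but its adjusted p was 0.0801. PLK3 of the same family had 0 to 5 counts in the HEK WT libraries and 7 to 12 in HEK UL1 KO and was too low to be tested.

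Of the 10 genes of mitochondrial apoptosis and related stress responses, 9 were tested in CN, and 1 rose and 2 fell. TP53I3, an oxidoreductase linked to reactive oxygen species, had 14, 7 and 24 counts in HEK WT and 47, 36 and 32 in HEK UL1 KO, or 0.166, 0.0838 and 0.304 against 0.643, 0.480 and 0.540 CPM. The groups were separate, with a difference of 1.59 (SE 0.386, adjusted p = 0.00834). TP53INP1, a stress protein of autophagy and apoptosis, had 1.02, 1.18 and 1.83 CPM in HEK WT and 0.698, 0.920 and 0.709 in HEK UL1 KO. Its HEK UL1 KO libraries were all lower, by -0.79 (SE 0.238, adjusted p = 0.0240), but without replicate 3 of HEK WT CN, the highest library, the difference was -0.45 with an adjusted p of 0.0712. Without replicate 1 or replicate 3 of HEK UL1 KO CN the adjusted p was 0.0809 and 0.101. ZMAT3, an RNA-binding zinc finger protein, had 3.28, 3.42 and 4.60 against 2.53, 2.60 and 2.09 CPM, again without overlap, and fell by 0.64 on the log2 scale (SE 0.149, adjusted p = 0.00657). Without replicate 3 of HEK WT CN the ZMAT3 difference was -0.42, with an adjusted p of 0.0174.

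The direct executioners of mitochondrial apoptosis were not called in CN with TMM. BAX, which opens the outer mitochondrial membrane, had 0.594, 0.538 and 0.835 CPM in HEK WT and 0.574, 0.426 and 0.405 in HEK UL1 KO, with 1 library of HEK UL1 KO inside the range of HEK WT and a difference of -0.47 (95% interval -1.03 to 0.09, adjusted p = 0.163). BBC3, which encodes the BH3-only protein PUMA, had 0.166, 0.203 and 0.177 against 0.178, 0.133 and 0.236 CPM. These overlapped, and the interval of the BBC3 difference, -0.81 to 0.78, was wide. PMAIP1, which encodes the BH3-only protein NOXA, was more abundant, with 12.1, 12.1 and 8.03 CPM in HEK WT and 11.2, 13.1 and 10.4 in HEK UL1 KO, and overlapped as well (difference 0.11, interval -0.22 to 0.43). AEN, an apoptosis-enhancing nuclease, TRIAP1, an inhibitor of apoptosis, and SPATA18, a regulator of mitochondrial quality, had differences of 0.03, -0.10 and -0.04. PHLDA3, an inhibitor of the kinase AKT, had 3 to 9 counts per library and was not tested.

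Both TRAIL receptors among the 4 death receptors rose in the CN fraction. TNFRSF10A, which encodes TRAIL receptor DR4, had 5, 7 and 3 counts in HEK WT and 44, 49 and 46 in HEK UL1 KO, or 0.0594, 0.0838 and 0.0379 against 0.602, 0.653 and 0.777 CPM. Each HEK UL1 KO library was far above each HEK WT library. The difference was 3.44 on the log2 scale (SE 0.342, adjusted p = 3.42e-05), and the ratio of the pooled counts, scaled by library size, was 11.0 with an interval from counting error alone of 6.46 to 20.2. In the NO fraction TNFRSF10A had 0.334, 0.309 and 0.540 CPM in HEK WT and 1.34, 1.11 and 1.41 in HEK UL1 KO, without overlap, and a difference of 1.66 (SE 0.342, adjusted p = 0.0302). This NO call was lost when any 1 library other than replicate 3 of HEK WT NO was left out, with adjusted p from 0.0515 without replicate 2 of HEK UL1 KO NO to 0.161 without replicate 1 of HEK WT NO and differences of 1.54 to 1.79. It was also lost with scaling to total counts (1.99, adjusted p = 0.679). Antisense transcripts cover 7.65 and 9.09% of the exons of TNFRSF10A, and reads from them cannot be told apart from its own where the strand setting is unknown.

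TNFRSF10B, which encodes TRAIL receptor DR5 and lies near TNFRSF10A on chromosome 8, had 4.45, 4.18 and 5.40 CPM in HEK WT and 6.88, 7.22 and 6.60 in HEK UL1 KO in CN. It rose in all HEK UL1 KO libraries, by 0.56 on the log2 scale (SE 0.105, adjusted p = 0.00182). Its exons overlap RHOBTB2 on the opposite strand over 7.52% of their length, so its count is uncertain as well. FAS, the receptor of FAS ligand, overlapped between genotypes, with 0.772, 1.14 and 1.20 against 0.875, 0.666 and 1.08 CPM. EDA2R, the receptor of an ectodysplasin isoform, had 0.345, 0.371 and 0.860 against 0.615, 0.693 and 0.692 CPM. The single high HEK WT library of EDA2R was replicate 3, and the difference was 0.35 (interval -0.38 to 1.08).

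Among the 4 genes of DNA repair and nucleotide supply, XPC and RRM2B fell, DDB2 rose and POLH was not called in CN. XPC, the damage sensor of global nucleotide excision repair, had 5.30, 5.22 and 5.55 CPM in HEK WT and 3.98, 3.81 and 3.65 in HEK UL1 KO, so the groups were well apart. The XPC difference was -0.49 (SE 0.0865, adjusted p = 0.00136), and the exons of XPC overlap an antisense transcript over 24.6% of their length. DDB2, the ultraviolet damage-binding subunit that hands lesions to XPC, had 1.05, 1.21 and 1.90 against 2.04, 1.97 and 2.11 CPM. The DDB2 groups did not overlap, but its call was at the threshold (0.56, SE 0.203, adjusted p = 0.0494). It was lost when any 1 library other than replicate 3 of HEK WT CN was left out (adjusted p 0.109 to 0.180), and without that replicate the difference was 0.90 with an adjusted p of 0.000276. The DDB2 call was also lost with DESeq2 (0.120) and with TMM without rRNA genes (0.0508). RRM2B, the p53-inducible subunit of ribonucleotide reductase, had 5.32, 4.83 and 5.49 CPM in HEK WT and 4.60, 4.32 and 3.596 in HEK UL1 KO, a difference of -0.32 (SE 0.108, adjusted p = 0.0388) without overlap. The RRM2B call was lost without replicate 1 or 3 of HEK WT CN or replicate 2 or 3 of HEK UL1 KO CN, with adjusted p of 0.102, 0.130, 0.0918 and 0.184. It was also lost with DESeq2 (0.0519), without a filter (0.0509) and with at least 10 counts in every library (0.0874). POLH, the polymerase that copies past ultraviolet lesions, had a difference of 0.19 (adjusted p = 0.203).

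Of the 4 genes of metabolism and redox control, SESN2 fell. SESN2, which encodes sestrin 2, a leucine sensor that restrains mTORC1, had 2.93, 3.90 and 2.81 CPM in HEK WT and 1.93, 1.95 and 1.72 in HEK UL1 KO, all lower than in HEK WT, and a difference of -0.78 (SE 0.146, adjusted p = 0.00184). Its relative SESN1 had 7.28, 7.32 and 9.50 against 8.38, 8.89 and 7.85 CPM and overlapped. TIGAR, a phosphatase that lowers glycolytic flux, had a difference of -0.00 (interval -0.20 to 0.20), and FDXR, the ferredoxin reductase of mitochondria, one of 0.22 (interval -0.42 to 0.87). The exons of TIGAR overlap a protein-coding gene on the same strand over 18.1% of their length, so its count is uncertain. Of the remaining targets, RPS27L, a ribosomal protein S27 relative, had a difference of -0.18 (adjusted p = 0.538). GDF15, a stress-secreted cytokine, had 1 to 7 counts per library, and TRIM22, an antiviral ubiquitin ligase, 1 to 7, and neither was tested in CN.

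The number of calls depended on the scaling of the libraries and on the fit. With total counts in place of TMM, the median of all genes in CN moved by 0.20, and 8 members were called, 6 higher and 2 lower, while 13.6% of all genes were higher and 6.33% lower. MDM4, XPC, ZMAT3, SESN2, TP53INP1 and RRM2B then missed the threshold, with differences between -0.60 for SESN2 and -0.11 for RRM2B. With GAPDH as the only reference the median of all genes moved by -0.35, and 3 members were higher and 9 lower, while 4.01% of all genes were higher and 33.3% lower. GADD45A, TNFRSF10B and DDB2 missed the threshold there, at 0.42, 0.23 and 0.24. BAX, not called with TMM, was called lower there, at -0.80 (adjusted p = 0.0289 by edgeR). In the joint fit of all 12 libraries, 8 members were called and 11.2% of all genes, and MDM4, XPC, GADD45A, TNFRSF10B, DDB2 and RRM2B missed the threshold, with adjusted p of 0.155, 0.0854, 0.118, 0.1499, 0.200 and 0.242. PURPL, CCNG1, TNFRSF10A, TP53I3 and CDKN1A were called in CN in the same direction under both scalings and in the joint fit.

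In the NO fraction, 34 members were tested and 2 were called (5.88%), PURPL lower and TNFRSF10A higher, while 0.939% of all genes tested were called, 0.365% higher and 0.574% lower. The libraries of both genotypes did not overlap for 5 members (14.7%), against 20.1% of all genes. These were PURPL and TNFRSF10A, and BAX, SESN2 and TP53I3, which did not pass the test. BAX had 0.770, 0.866 and 0.641 CPM in HEK WT NO and 0.415, 0.471 and 0.469 in HEK UL1 KO NO (difference -0.75, adjusted p = 0.294). SESN2 had 2.88, 4.33 and 2.48 against 1.78, 1.84 and 1.67 CPM (difference -0.87, adjusted p = 0.154), and TP53I3 had 0.334, 0.309 and 0.388 against 0.496, 0.918 and 0.633 CPM (difference 0.94, adjusted p = 0.239). BAX and SESN2 were thus lower and TP53I3 higher in every HEK UL1 KO library. CCNG1 had 22.6, 24.4 and 11.9 CPM in HEK WT NO and 8.90, 6.97 and 13.04 in HEK UL1 KO NO, overlapping through replicate 3 of both groups, and a difference of -1.03 (adjusted p = 0.155).

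The spread between NO libraries was larger than in CN, with a median SE of the members' log2 differences of 0.315 against 0.149. Without replicate 3 of HEK WT NO, 8 members were called, 2 higher and 6 lower, while 25.1% of all genes tested were. Beyond PURPL and TNFRSF10A, CCNG1 (-1.30), SESN2 (-1.04), MDM4 (-0.91), BAX (-0.88) and XPC (-0.81) were then called lower and GDF15 (2.29) higher. The remaining named members had the following differences in NO with all libraries, none of them called. MDM2 and PPM1D were at -0.15 and -0.11, MDM4 and XPC at -0.63 and -0.58, ZMAT3 and RRM2B at -0.36 and -0.27, and BBC3 at -0.30. CDKN1A was at 0.45, TNFRSF10B at 0.43, GADD45A at 0.25, DDB2 at 0.06 and TP53INP1 at -0.00. GDF15, tested in NO but not in CN, had the highest difference among members not called, 1.27 (adjusted p = 0.313), with 12 counts over the HEK WT and 44 over the HEK UL1 KO libraries.

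In the fits reported here, all 14 members called in CN had a log2 difference of the same sign in NO, but that of TP53INP1 was -0.00 and turned positive in other fits with TMM, and those of DDB2 and GADD45A turned negative with 1 library left out. MDM4, XPC, ZMAT3, RRM2B and TP53INP1 changed sign in NO with the U3 gene SNORD3A as the only reference, and ZMAT3, RRM2B and TP53INP1 also with total counts. The difference between the genotype effects of both fractions was tested as an interaction over all 12 libraries. With edgeR, 0 of 36 members passed the adjusted threshold, where 0.114% of all genes did. An unadjusted p under 0.05 was found for 3 members and for 1254 of all 37806 genes tested. DESeq2 gave the same 0 and 3 members. The lowest adjusted p was 0.706, for TNFRSF10A, whose genotype difference was 1.65 lower in NO than in CN. Effects in both fractions were therefore not shown to differ for any member.

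Comparing the fractions within a genotype addresses where the members' RNA was found. In HEK WT, 15 of 32 members tested were called, of which 14 were lower and 1 higher in NO than in CN, while of all genes 52.8% were called, 20.9% lower and 31.9% higher. In HEK UL1 KO, 25 of 34 were called, 23 lower and 2 higher, while of all genes 76.3% were called, 35.6% lower and 40.7% higher. The median log2 differences of the members were -0.49 and -0.71. Genes of the other lists described below were lower in NO too. In HEK WT these were 9 of 30 further p53 targets and 18 of 25 genes of the p53 family and upstream. They were also 1 of 12 genes of nucleolar surveillance and 9 of 19 repressed through p21. In HEK UL1 KO the numbers were 16 of 31, 22 of 25, 12 of 12 and 19 of 19 in the same order. Lower levels in NO were thus not particular to the members. All 5 regulators were lower in NO in both genotypes, with FBXW7 at -1.22 and -1.26, MDM2 at -1.09 and -1.31, PURPL at -0.88 and -0.65, MDM4 at -0.78 and -1.08, and PPM1D at -0.69 and -0.86 in HEK WT and HEK UL1 KO.

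CCNG1 (-1.14 and -1.32), ZMAT3 (-1.19 and -1.04) and PMAIP1 (-0.85 and -1.16) were also lower in NO in both genotypes. The exceptions included TNFRSF10A, which was higher in NO in HEK WT (2.28, SE 0.517, adjusted p = 0.00656) and not called in HEK UL1 KO (0.33, adjusted p = 0.129). EDA2R (0.47) and TRIM22 (1.80) were higher in NO in HEK UL1 KO. These counts rest on the scaling, since with total counts the median of all genes moved by 0.35 and 0.76, and the calls were 1 higher and 4 lower in HEK WT and 5 higher and 2 lower in HEK UL1 KO. Of all genes, 21.8% were then higher and 2.07% lower in HEK WT, and 53.6% and 2.39% in HEK UL1 KO.

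**Figure D3:**
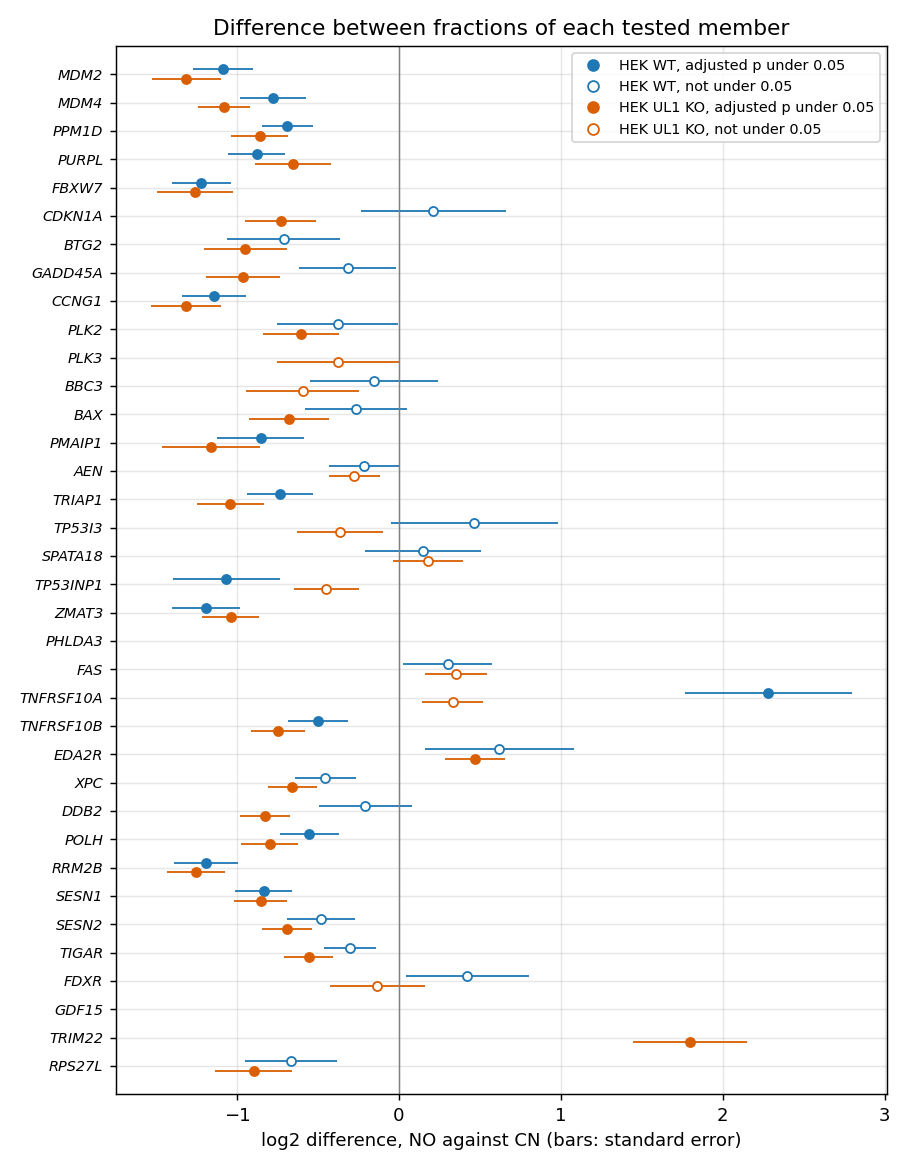
Log2 difference between the NO and CN fractions (x axis, bars are standard errors) of each member tested (y axis), for HEK WT and HEK UL1 KO, filled where the adjusted p was under 0.05. Most members lie left of 0, with medians of -0.49 and -0.71, and TNFRSF10A in HEK WT (2.28) and TRIM22 in HEK UL1 KO (1.80) lie farthest to the right.

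Levels of different members were compared per kilobase of the canonical transcript. Exons found only in other transcripts of a gene can add counts but no length here. The order below therefore rests on this choice of length, and other lengths were not tested. In the CN fraction of HEK WT, CCNG1 was the most abundant member at 12.6 ± 0.536 CPM per kilobase (SD, n = 3), followed by PURPL at 8.14 ± 0.766, FBXW7 at 6.08 ± 0.523, PMAIP1 at 5.67 ± 1.25 and MDM2 at 4.07 ± 0.529. FBXW7 and PMAIP1 lay within their spread of each other, and so did PMAIP1 and MDM2. The lowest members were PLK3 at 0.0121, TRIM22 at 0.0127 and TNFRSF10A at 0.0224 CPM per kilobase. PURPL thus went from the second place of this order in HEK WT to 0.620 CPM per kilobase in HEK UL1 KO.

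Among 33 further p53 targets, 31 were tested in CN, 2 rose and 8 fell, with PANK1, a kinase of coenzyme A synthesis (-0.90), and CMBL, a hydrolase (-0.77), changing most. Of 25 genes of the p53 family and the kinases and ligases upstream of it, 2 rose and 13 fell, with a median of -0.26. CDKN2A, which encodes the MDM2 inhibitor p14ARF and the cell cycle inhibitor p16, was at -1.16, and COP1, a ubiquitin ligase of p53, at -0.90.

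Of 12 genes of nucleolar surveillance, the ribosomal proteins and nucleolar proteins that bind MDM2 or p53, 0 rose and 6 fell in CN, with a median of -0.28. RPL5, a ribosomal protein that binds MDM2 together with the 5S rRNA, was at -0.71 and NPM1, the abundant nucleolar chaperone, at -0.54. Of 19 cell cycle genes that p53 represses through p21 and the DREAM complex, 2 rose and 5 fell, with a median of -0.05 and with CCNB1 (-0.99) and CCNA2 (-0.72), the cyclins of mitosis and of S phase, changing most. In NO, edgeR called 0 genes of each of these 4 lists, and 3, 5, 4 and 5 genes had an unadjusted p under 0.05 in the order given. Of all 34836 genes tested in NO, 0.939% were called and 5574 had an unadjusted p under 0.05. With so small a share called, 0 calls in lists of this size do not set them apart from all genes.

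With total counts the CN counts of the same lists, higher and lower, were 3 and 1, 2 and 3, 0 and 1, and 2 and 2, and with GAPDH as the reference 0 and 13, 0 and 16, 0 and 8, and 0 and 9. Of all genes tested in CN, 13.6% were higher and 6.33% lower with total counts, and 4.01% and 33.3% with GAPDH. The plot of calls by list shows only the calls with TMM, beside all genes tested, of which 15.6% rose and 22.3% fell.

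**Figure D4:**
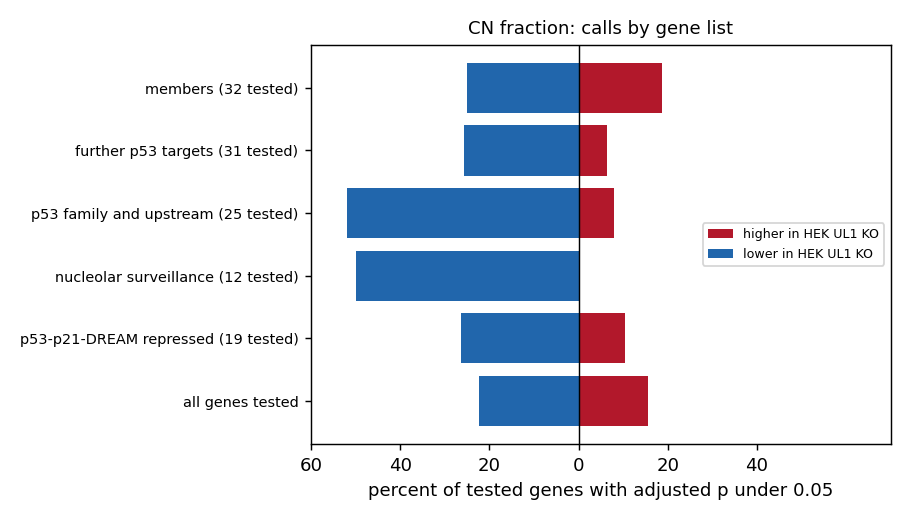
Share of tested genes (x axis, percent, 0 in the middle) called higher (to the right) or lower (to the left) in HEK UL1 KO than in HEK WT in the CN fraction, for the members and each pathway list (y axis) and for all genes tested. The bar of all genes reaches 15.6% higher and 22.3% lower, and the bar of nucleolar surveillance has no part on the higher side.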

How the data were processed

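Raw counts per gene, not normalized, were deposited by the authors as 1 table per fraction. Per the labels and the study's methods, total RNA libraries were made without rRNA depletion and sequenced as single reads. The submitters' processing notes name FastQC 0.11.4, cutadapt 3.7, STAR 2.7.8, featureCounts and DESeq2 with GRCh38; counting options, strand setting and annotation version are not given in the sources used here. Multiply aligned reads can blur genes with close relatives. Exons of further members overlap antisense genes, among them CDKN1A (4.87% of their length), TP53INP1 (3.99%) and TP53I3 (3.46%), so their counts are uncertain in the same way. The 12 columns were matched to samples by their labels.

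The genotypes were compared in each fraction, and the fractions in each genotype, with edgeR 4.0.16 (R 4.3.3, limma 3.58.1): filterByExpr (minimum count 10, minimum total count 15), TMM, a quasi-likelihood F test and Benjamini-Hochberg adjustment over all genes tested (34836 in NO, 27234 in CN), called under 0.05. CPM are counts relative to the TMM-scaled library total. The interaction used all 12 libraries. Nothing in the labels says that replicates were separate cultures, so p-values measure the spread between these samples, which may be technical. With 3 libraries per group, an exact permutation test cannot go below p = 0.1 and was not used. At 37141666 counts or more per library, counting error matters only for members with few counts; intervals from pooled counts cover counting error only.

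The members and lists were chosen with earlier results of these data known. Members called in either fraction, and MDM2, MDM4, PPM1D, CDKN1A, BAX and BBC3, were named with values in both fractions; from each list, the 2 called genes with the largest change and a mean of at least 50 counts were named. 1 further gene that the rule names is not reported here. PLK2, EDA2R, PMAIP1 and other members outside this rule are given by level. Positions and transcript lengths come from GENCODE 44, and gene start windows from RefSeq GRCh38.p14. Alternatives were DESeq2 1.42.0, total counts, TMM without rRNA genes, 1 reference gene (GAPDH in CN, SNORD3A in NO), a joint fit of all 12 libraries, a replicate block, a minimum of 10 counts per library for every gene, no filter, and each library left out. Scripts were tested on simulated counts. Figures were drawn with matplotlib 3.10.9.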

Additional observations from a re-analysis of the deposited data

How the results depend on the processing

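Members called in CN (14) were 8 with all 12 libraries in one fit (3 higher, 5 lower) and 8 with total counts, and 11 to 16 with 1 library left out. The 16 (10 higher, 6 lower) came without replicate 3 of HEK WT CN. Of all genes tested in CN, 37.9% were called in the fit reported above, 11.2% in the 12-library fit and 19.9% with total counts. Members called in NO (2) were 4 in the 12-library fit, 14 with SNORD3A as the reference (13 higher, 1 lower) and 0 with total counts, and 1 to 8 with 1 library left out. Of all genes tested in NO, 4.61% were called in the 12-library fit, 32.5% with SNORD3A (32.3% higher, 0.255% lower) and 0.0287% with total counts. Without replicate 3 of HEK WT NO, where 8 members were called, the share of all genes was 25.1%. NO against CN gave 15 members in HEK WT, 5 with total counts and 12 to 20 with 1 library left out, and 25 in HEK UL1 KO, 7 with total counts and 22 to 26. With total counts, 23.8% of all genes were called in HEK WT and 56% in HEK UL1 KO. The interaction gave 0 members throughout. The other settings kept these counts of members within 1.5 times. Total counts and single references moved the medians of all genes, by 0.40 and 0.83 in NO. Beyond this, why counts moved was not tested.

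The replicate number was the only sign of pairing, and deviations of same-numbered libraries correlated negatively (-0.482 to -0.0439). This cannot decide whether they came from a shared preparation, since fractions of the same preparation can deviate in opposite directions. With a replicate block, 13 members were called in CN and 2 in NO, 12 and 23 between fractions and 0 in the interaction, and RRM2B in CN missed the threshold (adjusted p = 0.0655).

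Named differences that changed sign, none of them called in either direction, were as follows, and why they did was not tested. In CN, at least 10 counts in every library gave BBC3 0.054, MDM2 0.045 and PPM1D 0.013, and total counts 0.19, 0.19 and 0.14. Leaving out 1 library at a time gave BBC3 -0.21 to 0.18, MDM2 -0.12 to 0.12 and PPM1D -0.19 to 0.035. In NO, SNORD3A gave BAX 0.085, BBC3 0.53, MDM2 0.79, MDM4 0.28, PPM1D 0.79, RRM2B 0.64, TP53INP1 0.83, XPC 0.32 and ZMAT3 0.53, and total counts gave BBC3 0.14, MDM2 0.39, PPM1D 0.38, RRM2B 0.28, TP53INP1 0.36 and ZMAT3 0.11. At least 10 counts in every library gave PPM1D 0.023 and TP53INP1 0.099, TMM without rRNA TP53INP1 0.028, the 12-library fit 0.051 and the block 0.014. Leaving out 1 library at a time gave DDB2 -0.060 to 0.23, GADD45A -0.0083 to 0.62, MDM2 -0.39 to 0.11, PPM1D -0.26 to 0.090 and TP53INP1 -0.053 to 0.099.

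Depth limits members with few counts in CN, among them CDKN1A, TP53I3 and TNFRSF10A with 3 to 54 counts per library, and PLK3, PHLDA3, GDF15 and TRIM22, which were not tested there.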
